A study of Homo sapiens with 6 samples.

Results

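The replication-dependent histone genes were examined in H358 cells (an epithelial line from a human lung tumour) after knockdown of the epithelial splicing regulators ESRP1 and ESRP2 and in cells with a control knockdown. The members were the rows of the table whose symbol begins with HIST1H, HIST2H, HIST3H or HIST4H, without rows listed at 0 in every library and without pseudogenes named PS and a number. Of 54607 rows, 87 carried such a symbol, 12 of them were PS rows and 17 others were listed at 0 throughout, which left 58 genes: 5 of H1, 16 of H2A, 19 of H2B, 7 of H3 and 11 of H4. The rule reads symbols and zeros and no difference between the groups, though these genes were picked for description with earlier results of the data known. By symbol, 46 of these genes belong to HIST1 on chromosome 6 and 1 to HIST4 on chromosome 12. On chromosome 1 there are 9 of HIST2 and 2 of HIST3. HIST2H2BA and HIST2H2BB begin at bases 120906028 and 120906043 (hg19), apart from the other HIST2 genes. Those others lie between bases 149754245 and 149859466. The knockdown group (ESRP KD) carried lentiviral short hairpin RNAs against both ESRP genes and the other group (CTRL) a control knockdown, with 3 libraries each, described as biological triplicates. Each group carries its own constructs, so an effect of a construct and of lower ESRP cannot be told apart, and the number of hairpins or clones is not given in the sources used here. Values are FPKM, a count of fragments divided by transcript length and library size, so they are levels per length. The length correction is not given in the sources used here, and for genes this short it can shift levels, so orders and shares of levels between genes hold only as deposited. All differences are knockdown minus control, and n = 3 in every mean ± SD.

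Replication-dependent histone genes are short genes without introns that supply the histones packed onto newly copied DNA. Their main messengers are made in S phase and end in a conserved stem-loop, bound by the stem-loop binding protein SLBP, in place of a poly(A) tail. Some of these genes also give a longer polyadenylated transcript that runs past the stem-loop to a downstream poly(A) signal, a form known from differentiated and non-dividing cells. The libraries were made with a stranded mRNA kit, which captures poly(A) tails, so the values below are read as levels of polyadenylated histone RNA. Stem-loop messengers make up most histone RNA in dividing cells, and how much of them was carried along was not measured. In such bulk RNA, fewer cells in S phase and less RNA per cell cannot be told apart.

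Annotated models of some of these genes hold a stem-loop and, further on, a poly(A) signal. The first set of sequences holds the stem-loop of genes described below, read from GENCODE v29 transcripts, 5′ to 3′, with the 16 bases of the stem-loop in capitals and the flanks in lower case.
HIST2H2BE: ctccaaaGGCTCTTTTCAGAGCCacccacc
HIST1H2AC: acccaaaGGCTCTTTTCAGAGCCcccctac
HIST3H2A: acataaaGGCTCTTTTCAGAGCCacctact
HIST2H2AA3: ctcaaaaGGCTCTTTTCAGAGCCacccacg
HIST1H3H: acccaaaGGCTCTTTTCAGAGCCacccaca
HIST1H2BC: ccccaaaGGCTCTTTTAAGAGCCacccaga
HIST1H2BD: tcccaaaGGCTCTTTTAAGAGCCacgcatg
HIST1H4H: aaccaaaGGCCCTTTTCAGGGCCgcccact
HIST1H4J: aataaaaGGCCCTTTTCAGGGCCacccta
The H4 genes share a stem that differs from that of the H2A, H2B and H3 genes, and HIST1H2BC and HIST1H2BD have another base in the loop. The second set shows the poly(A) signal AATAAA, in capitals, near the end of the longest model that has one.
HIST2H2BE: gctattgttattAATAAAgttaccaattaa
HIST1H2AC: ctggcatgaggtAATAAAaggtaatgcaaa
HIST1H2BD: aaagttataattAATAAAatctgcggagaa
HIST1H3H: tttgtatgactaAATAAAatctgtataatc
HIST1H4H: gaattgtgaaaaAATAAAtgtttaagcca
In the HIST2H2BE model of 2194 bases the stem-loop begins at base 450 and the AATAAA at base 2171, so the annotated transcript runs 1729 bases past the stem-loop. A stem-loop followed by an AATAAA in 1 model was found in 10 genes. The HIST1H2BD signal shown comes from a model without a stem-loop, and in HIST1H4J the AATAAA begins at base 345, before the stem-loop at base 352.

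A match to the histone stem-loop consensus was present in at least 1 model of 24 of the 58 genes. Counted by model, it was present in 39.3% of the 84 histone models and in 0.0547% of all 206694 transcripts, searched on the transcript strand. Models of 26 genes hold the coding sequence alone, so a 3′ end could not be read for them. These include HIST1H1C and HIST1H2BK, the 2 genes with the highest levels. The stem-loop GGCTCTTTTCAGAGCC was found in 13 genes (7 of H2B, 5 of H2A and 1 of H3), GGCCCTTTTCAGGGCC in 5 H4 genes, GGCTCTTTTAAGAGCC in 3 H2B genes, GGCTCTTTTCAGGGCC in 2 genes and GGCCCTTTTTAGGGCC in 1 H4 gene. An AATAAA within the last 50 bases of a model was found in 15 genes, and in 22.6% of the 84 histone models against 24.7% of all transcripts. The 15 genes had a median level of 6.38 FPKM and 12 of them had a mean of at least 1 FPKM. The 17 other genes with a readable end had a median of 0.979 FPKM, and 8 of them had a mean of at least 1 FPKM. The 26 genes with coding sequence alone could not be classed. This is a description of annotated models, which are themselves built in part from polyadenylated RNA, and the difference was not tested.

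Before the histone genes are described, the labels and libraries were checked. ESRP1 was at 16.3% and ESRP2 at 54.2% of the control level, with no overlap between groups. The depth of the libraries relative to control replicate 1 was estimated from steps of 1 read among low values, and total depth is unknown. Relative depth was 0.993, 1.42 and 1.24 in knockdown replicates 1, 2 and 3 and 1.66 and 1.65 in control replicates 2 and 3. Of 6 epithelial markers all were above 90 FPKM, and their summed level was 3018 to 3113 FPKM with the knockdown and 3485 to 3593 FPKM without it, so it moved with the groups, and its part in the histone values was not tested. The lung lineage factor NKX2-1 was at 48.0 FPKM, while SFTPB was listed at 0 and SFTPA1 and SFTPC were at or below 0.0986 FPKM in every library. Of 10 markers of leukocytes, endothelium and fibroblasts with a row in the table, 9 had a mean under 1 FPKM, COL1A1 being the exception at 9.18 FPKM, and their summed level overlapped between groups.

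Histone RNA in these libraries was concentrated in a few genes. HIST1H2BK, which encodes an H2B protein, stood at 255 FPKM over the 6 libraries and made up 44.8% of the summed level of all 58 genes. HIST1H1C, which encodes linker histone H1.2, followed at 89.0 FPKM. A further 7 genes stood between 10 and 100 FPKM, namely HIST1H2AC, HIST2H2BE, HIST1H2BD, HIST1H2BC, HIST3H2A, HIST1H4H and HIST1H2BJ. Another 19 stood between 1 and 10 FPKM, 17 between 0.1 and 1 FPKM, and 13 below 0.1 FPKM. The 18 genes whose deposited span exceeds 1000 bp, HIST1H2BK with its 44.8% among them, carried 71.5% of the summed level. The 40 genes with a shorter span carried 28.5%. A mean of 10 FPKM was reached by 7 of the 18 and by 2 of the 40.

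**Figure D1:**
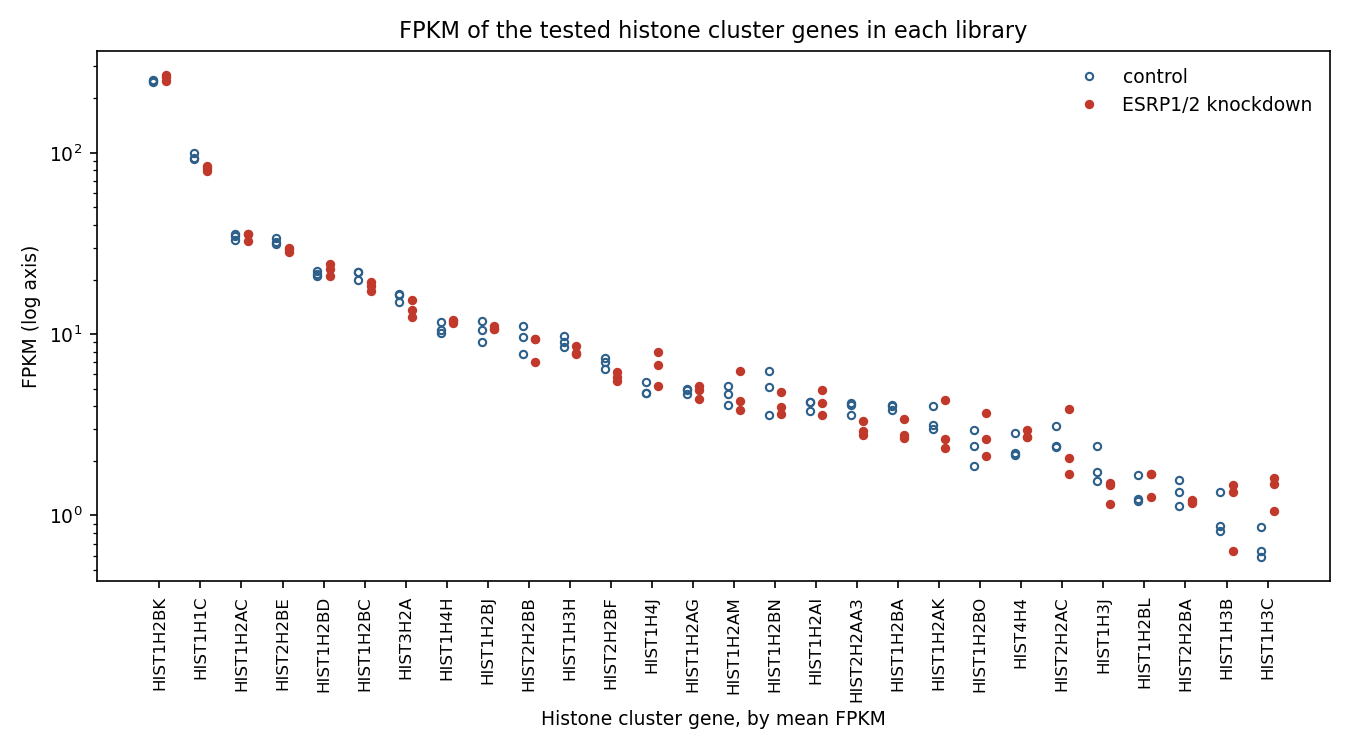
FPKM on a log axis for the 28 histone cluster genes with a mean of at least 1 FPKM, ordered by mean, with each of the 3 control libraries as an open circle and each of the 3 knockdown libraries as a filled circle. HIST1H2BK stands alone near 255 FPKM, and for most genes the open and filled circles overlap.

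The comparison asks whether histone RNA in these libraries differs between ESRP KD and CTRL cells. Differential expression was tested with limma on log2(FPKM + 1) over the 13611 rows that averaged 1 FPKM or more, and 28 of the 58 histone genes passed this filter. Of these 28, HIST1H1C, HIST1H2BA, HIST2H2BE, HIST1H2BC and HIST2H2AA3 fell and HIST1H3C rose (limma adjusted p under 0.05), while 22 did not pass the test. The 6 calls are 21.4% of the tested histone genes, beside 16.7% of all tested rows, so the share is near the background. HIST1H3C passed the filter through its knockdown level, and of the 27 genes with a mean of at least 1 FPKM in both groups 5 were called, or 18.5%. By direction, 10.2% of all tested rows were called lower and 6.54% higher. Their median log2 fold change was -0.04, beside -0.002 for all tested rows, and the estimates lay below 0 for 15 genes and above 0 for 13. The groups did not overlap for 8 of the 28, 7 of them lower in the knockdown, which is 28.6% beside 38.1% of all tested rows (20.9% lower and 17.3% higher). When any 1 library was left out, 2 or 3 genes were called lower and 0 or 1 higher. There were 2 lower calls in the fits that left out knockdown replicate 1 or 3, or control replicate 2 or 3, and 3 without knockdown replicate 2 or control replicate 1. No histone gene was called higher without knockdown replicate 3 or control replicate 1 or 2.

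**Figure D2:**
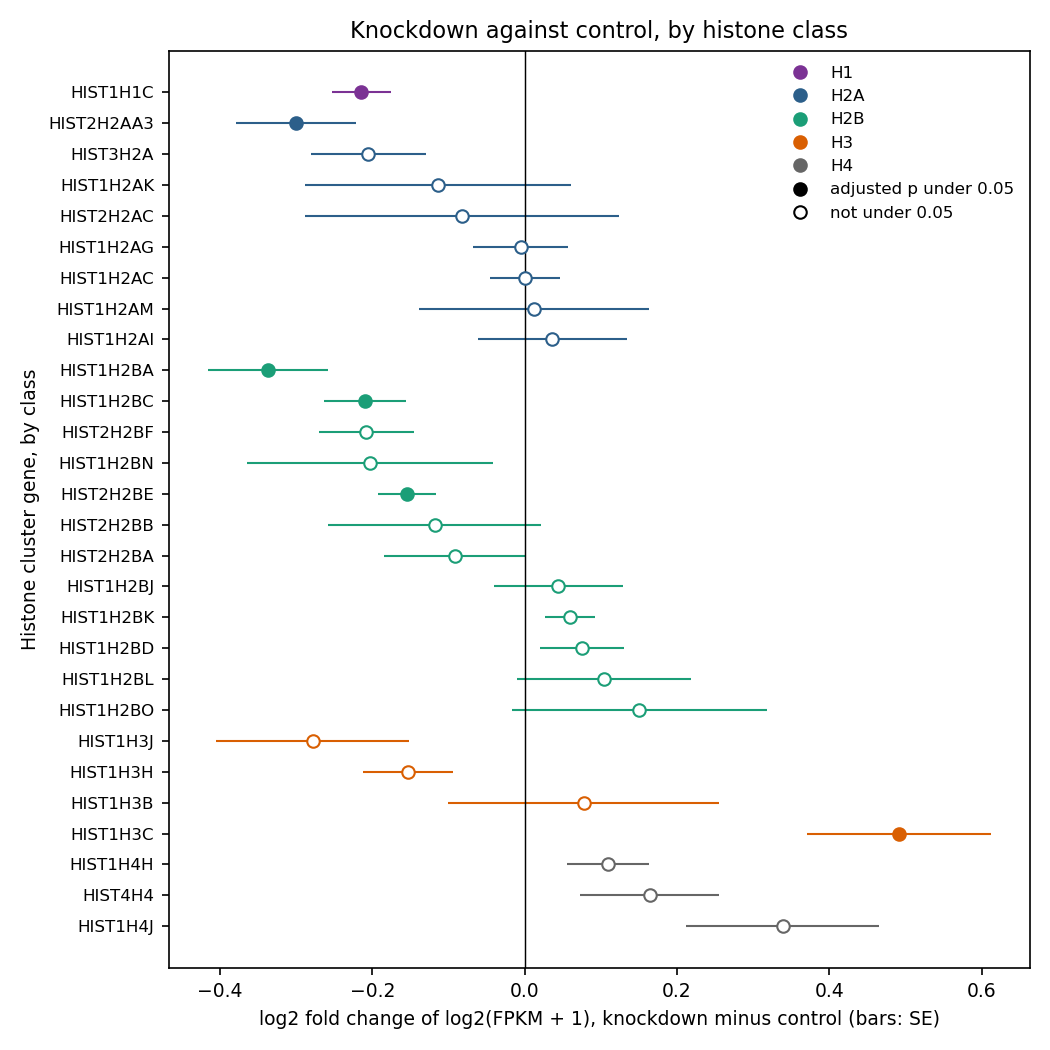
Log2 fold change of log2(FPKM + 1), knockdown minus control, with its SE for each of the 28 tested histone genes, coloured by class and filled where the limma adjusted p is under 0.05. The 6 filled points are 5 falls of 0.15 to 0.34 and the rise of HIST1H3C at 0.49, and most other points lie within 0.2 of 0.

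H1 is the linker histone that binds where DNA enters and leaves the nucleosome. HIST1H1C (H1.2; ENSG00000187837, hg19 chromosome 6, 26055968 to 26056699, minus strand) held 99.0% of the summed H1 level. It stood at 84.7, 82.6 and 79.7 FPKM in knockdown replicates 1, 2 and 3 and at 94.0, 92.7 and 100 FPKM in control replicates 1, 2 and 3. Every knockdown library lay below every control library. The means were 82.3 ± 2.5 and 95.7 ± 4.1 FPKM, so the knockdown was at 86.0% of the control, which is -0.21 on the log2 scale (SE 0.04, limma adjusted p = 0.0105). It was called lower in each of the 14 alternative fits run, with log2 fold changes from -0.24 to -0.18.

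The 150 bases before the HIST1H1C start are shown because they carry the element that set the H1 genes apart from the other classes (RefSeq, GRCh38.p14, chr6:26056471-26056620, minus strand, 5′ to 3′, with the H1 box AAACACA and the CCAAT box in capitals).
HIST1H1C: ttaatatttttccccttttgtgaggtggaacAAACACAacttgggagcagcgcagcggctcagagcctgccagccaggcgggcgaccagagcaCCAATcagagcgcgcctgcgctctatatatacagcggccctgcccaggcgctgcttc
In the 250 bases before the start, on either strand, AAACACA was found in 5 of 5 H1 genes, in none of the other 43 histone genes with a RefSeq window and in 4.82% of all 35116 windows. CCAAT was found in 41 of 48 histone genes, in 2 of 9 H4 genes among them, and in 32.0% of all windows. These are matches of letters and not binding sites.

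The other H1 genes were low. HIST1H1E (H1.4) stood at 0.384, 0.574 and 0.351 FPKM in knockdown replicates 1, 2 and 3 and at 0.654, 1.12 and 0.728 FPKM in control replicates 1, 2 and 3. The knockdown libraries were again the lower ones, but the gene was under the level needed for testing. HIST1H1B (H1.5) and HIST1H1T, a linker histone of testis, had means of 0.134 and 0.129 FPKM with overlapping groups. HIST1H1A was above 0 in a single library, and HIST1H1D was listed at 0 throughout.

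H2A pairs with H2B in the nucleosome core. Of 8 tested H2A genes 1 fell, HIST2H2AA3, and none rose, with a median log2 fold change of -0.04. That is 12.5% called, beside 16.7% of all tested rows (10.2% lower and 6.54% higher). HIST1H2AC, the H2A gene of highest level, stood at 35.5, 35.6 and 32.5 FPKM in knockdown replicates 1, 2 and 3 and at 34.9, 35.5 and 33.1 FPKM in control replicates 1, 2 and 3. The groups overlapped, and the log2 fold change was 0.00041 (SE 0.05, limma adjusted p = 0.996), an estimate that lay at -0.01 with values rescaled to TPM. Next came HIST3H2A, at 15.4, 12.4 and 13.6 FPKM in knockdown replicates 1, 2 and 3 and at 16.5, 15.0 and 16.6 FPKM in control replicates 1, 2 and 3. Only knockdown replicate 1 reached into the control range, and the difference was not called (log2 fold change -0.21, SE 0.08, limma adjusted p = 0.102). Without knockdown replicate 1 its adjusted p was 0.0393, at a log2 fold change of -0.28.

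HIST2H2AA3 (ENSG00000183558, hg19 chromosome 1, 149813505 to 149814478, minus strand) stood at 2.93, 3.33 and 2.77 FPKM in knockdown replicates 1, 2 and 3 and at 4.20, 3.56 and 4.06 FPKM in control replicates 1, 2 and 3. All 3 knockdown libraries were below the controls, at 76.4% of their mean (log2 fold change -0.30, SE 0.08, limma adjusted p = 0.0392). The call was lost when knockdown replicate 1 or 3, or control replicate 1 or 3, was left out, and adjusted p reached 0.118. The near-identical copy HIST2H2AA4 was listed at 0 in every library, so reads of the copies may have been assigned to either and this value is uncertain. HIST2H2AC, at 2.59 FPKM over the 6 libraries, lies within the span of BOLA1, a gene on the same strand at 18.6 FPKM, and its value is uncertain for that reason. The remaining tested H2A genes, HIST1H2AG, HIST1H2AM, HIST1H2AI and HIST1H2AK, had means of 3.25 to 4.85 FPKM and adjusted p between 0.696 and 0.966. Another 8 H2A genes were under 1 FPKM, from 0.015 FPKM for HIST1H2AE to 0.314 FPKM for HIST1H2AL.

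H2B held 64.9% of the summed histone level. HIST1H2BK (ENSG00000197903, hg19 chromosome 6, 27106073 to 27114619, minus strand) stood at 261, 269 and 250 FPKM in knockdown replicates 1, 2 and 3 and at 253, 246 and 250 FPKM in control replicates 1, 2 and 3. The third knockdown library lay within the control range, and the means of 260 ± 10 and 250 ± 3.7 FPKM gave an estimate of 0.06 on the log2 scale (SE 0.03, limma adjusted p = 0.260). Of 12 tested H2B genes 3 fell and none rose, with a median log2 fold change of -0.10. That is 25% called, beside 16.7% of all tested rows (10.2% lower and 6.54% higher). Those that fell were HIST2H2BE, HIST1H2BC and HIST1H2BA.

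HIST2H2BE (ENSG00000184678, hg19 chromosome 1, 149856010 to 149858232, minus strand), an H2B gene whose 3′ end is printed above, stood at 29.5, 29.8 and 28.5 FPKM in knockdown replicates 1, 2 and 3 and at 34.1, 32.4 and 31.4 FPKM in control replicates 1, 2 and 3. Each knockdown library was lower than each control library, at 89.5% of the control mean (log2 fold change -0.15, SE 0.04, limma adjusted p = 0.0325). The call held without control replicate 3 and was lost without any other single library, with adjusted p from 0.0651 to 0.0890. HIST1H2BC (ENSG00000180596, hg19 chromosome 6, 26115129 to 26124154, minus strand) stood at 17.4, 18.4 and 19.3 FPKM in knockdown replicates 1, 2 and 3 and at 20.0, 22.1 and 22.1 FPKM in control replicates 1, 2 and 3. There too the groups did not overlap, with the knockdown at 85.8% of the control (log2 fold change -0.21, SE 0.05, limma adjusted p = 0.0368). This call was lost when knockdown replicate 1 or 2, or control replicate 2 or 3, was left out, and adjusted p reached 0.123.

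HIST1H2BA (ENSG00000146047, hg19 chromosome 6, 25727137 to 25727573, plus strand) encodes an H2B variant known from testis. It stood at 2.69, 3.40 and 2.79 FPKM in knockdown replicates 1, 2 and 3 and at 4.09, 3.83 and 4.04 FPKM in control replicates 1, 2 and 3. The highest knockdown library was below the lowest control library, and the knockdown mean was 74.2% of the control mean (log2 fold change -0.34, SE 0.08, limma adjusted p = 0.0266). The call held without knockdown replicate 2 and was lost without any other single library, with adjusted p from 0.0666 to 0.0873.

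The 150 bases before the starts of these 3 genes are shown because all carry the octamer ATTTGCAT, known as an element of H2B promoters, which appears with CCAAT and TATAAA in capitals (RefSeq, GRCh38.p14, 5′ to 3′ on the strand of the gene; chr1:149886683-149886832 minus for HIST2H2BE, chr6:26123927-26124076 minus for HIST1H2BC and chr6:25726627-25726776 plus for HIST1H2BA).
HIST2H2BE: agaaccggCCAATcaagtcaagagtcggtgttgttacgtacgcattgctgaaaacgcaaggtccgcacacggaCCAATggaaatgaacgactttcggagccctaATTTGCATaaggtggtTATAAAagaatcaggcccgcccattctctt
HIST1H2BC: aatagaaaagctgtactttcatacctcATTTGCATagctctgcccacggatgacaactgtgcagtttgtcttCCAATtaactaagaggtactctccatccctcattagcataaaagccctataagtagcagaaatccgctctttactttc
HIST1H2BA: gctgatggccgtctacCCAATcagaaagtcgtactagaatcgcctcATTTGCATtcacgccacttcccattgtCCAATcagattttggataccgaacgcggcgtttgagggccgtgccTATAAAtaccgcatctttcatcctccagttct
The octamer, on either strand of the 250 bases before the start, was found in 9 of 13 H2B genes and 11 of 15 H2A genes with a window, in 1 of 6 H3 genes, in no H1 or H4 gene and in 1.63% of all windows. TATAAA was found in 34 of 48 histone genes and in 10.7% of all windows. The window of HIST1H2BK, which was not called, holds all 3 elements, while the bases shown for HIST1H2BC hold no TATAAA.

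Among the other tested H2B genes HIST2H2BF was the nearest to a call, and it is given by library for that reason, chosen after its values were seen. It stood at 6.17, 5.84 and 5.54 FPKM in knockdown replicates 1, 2 and 3 and at 6.39, 6.99 and 7.37 FPKM in control replicates 1, 2 and 3, without overlap (log2 fold change -0.21, SE 0.06, limma adjusted p = 0.0590). Its adjusted p was 0.0497 without control replicate 1, 0.0414 with values rescaled to TPM and 0.0485 with GC and length trends removed, and it was 0.174 without control replicate 3. HIST1H2BD and HIST1H2BJ, at 22.1 and 10.6 FPKM over the 6 libraries, had log2 fold changes of 0.08 and 0.04 (limma adjusted p = 0.392 and 0.760). HIST1H2BN, HIST1H2BO, HIST1H2BL and the pseudogenes HIST2H2BA and HIST2H2BB had adjusted p between 0.428 and 0.604. The last 2 overlap each other on the same strand, so their values are uncertain. The summed H2B level was 370 ± 11 FPKM with the knockdown and 368 ± 4.0 FPKM without it, and without HIST1H2BK it was 110 ± 2.0 and 119 ± 2.4 FPKM, which is 92.3% of the control.

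H3 and H4 form the tetramer at the centre of the nucleosome. H3 gave 2.47% and H4 3.97% of the summed level, and HIST1H4H was the one gene of either class with a mean above 10 FPKM. Of the rows not named PS, 7 of 14 for H3 and 4 of 15 for H4 were listed at 0 in every library. These include the duplicated copies HIST2H3A, HIST2H3C, HIST2H4A and HIST2H4B. A 0 may stand for a failed estimate, so the shares and sums of these classes are uncertain. HIST1H3H, the H3 gene of highest level, stood at 7.88, 8.56 and 7.79 FPKM in knockdown replicates 1, 2 and 3 and at 8.53, 9.02 and 9.74 FPKM in control replicates 1, 2 and 3. The groups met at knockdown replicate 2 and control replicate 1, and the difference was not called (log2 fold change -0.15, SE 0.06, limma adjusted p = 0.115). HIST1H3J stood at 1.52, 1.47 and 1.16 FPKM in knockdown replicates 1, 2 and 3 and at 1.55, 2.42 and 1.74 FPKM in control replicates 1, 2 and 3. Its groups did not overlap, but by a small margin (log2 fold change -0.28, SE 0.13, limma adjusted p = 0.173), and it shares 408 bases of its span with HIST1H2AM on the same strand.

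HIST1H3C (ENSG00000196532, hg19 chromosome 6, 26045639 to 26046097, plus strand) was the histone gene that rose. It stood at 1.06, 1.48 and 1.62 FPKM in knockdown replicates 1, 2 and 3 and at 0.589, 0.636 and 0.858 FPKM in control replicates 1, 2 and 3. Every knockdown library was above every control library, with means of 1.39 ± 0.29 and 0.695 ± 0.14 FPKM (log2 fold change 0.49, SE 0.12, limma adjusted p = 0.0316). Its control mean was below 1 FPKM, so it passed the filter through the knockdown libraries, and its call is not independent of that. The call was lost when knockdown replicate 2 or 3, or control replicate 1 or 2, was left out, and adjusted p reached 0.0920. The 150 bases before its start carry CCAAT 4 times, in capitals (RefSeq, GRCh38.p14, chr6:26045234-26045383, plus strand, 5′ to 3′), and are shown as the promoter of the called gene that rose while 5 others fell.
HIST1H3C: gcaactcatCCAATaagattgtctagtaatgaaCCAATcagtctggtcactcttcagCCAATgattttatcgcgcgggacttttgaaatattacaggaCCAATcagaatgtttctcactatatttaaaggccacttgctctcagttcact
HIST1H3B, at 1.08 FPKM over the 6 libraries, had overlapping groups (limma adjusted p = 0.801).

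All 3 tested H4 genes had estimates above 0 and none was called. HIST1H4H stood at 11.8, 11.5 and 11.96 FPKM in knockdown replicates 1, 2 and 3 and at 11.7, 10.6 and 10.2 FPKM in control replicates 1, 2 and 3, with an overlap at control replicate 1 (log2 fold change 0.11, SE 0.05, limma adjusted p = 0.203). HIST1H4J stood at 6.76, 5.19 and 7.93 FPKM in knockdown replicates 1, 2 and 3 and at 4.74, 4.74 and 5.44 FPKM in control replicates 1, 2 and 3. Knockdown replicate 2 lay within the control range (log2 fold change 0.34, SE 0.13, limma adjusted p = 0.107). Without that library the adjusted p was 0.0254. HIST4H4, the lone gene of its cluster, had an estimate of 0.16 on the log2 scale (SE 0.09, limma adjusted p = 0.261).

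Summed over all members, H1 was at 85.8%, H2A at 96.1%, H2B at 100.4%, H3 at 88.2% and H4 at 113.9% of the control level. The H1 sums were 80.2 to 85.4 FPKM with the knockdown and 94.0 to 101 FPKM without it, without overlap, and they rest on HIST1H1C. The H4 sums were 22.9 to 25.6 FPKM with the knockdown and 20.2 to 22.1 FPKM without it, also without overlap. This separation rests on HIST1H4J, which was not called, and without that gene the H4 sums overlap. The highest knockdown sum and the lowest control sum of H3 both stood at 14.0 FPKM, and the H2A and H2B sums overlapped. The sum over all 58 genes was 562 ± 16 FPKM with the knockdown and 576 ± 5.2 FPKM without it. No p is given for these sums, for the reason given above.

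**Figure D3:**
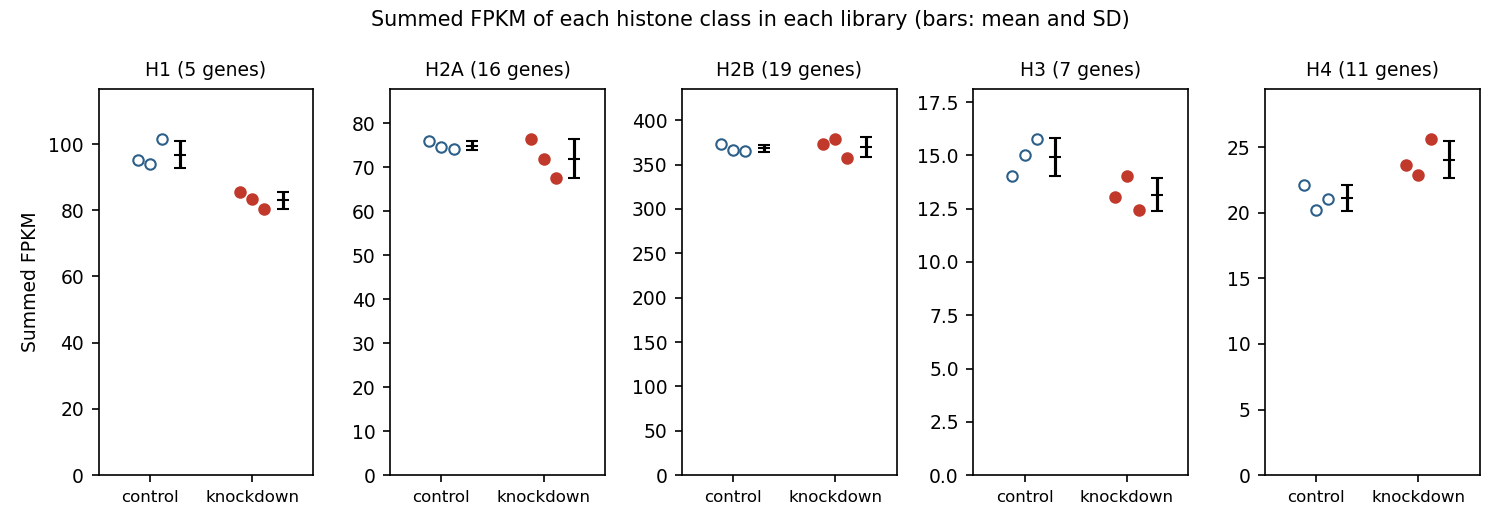
Summed FPKM of the genes of each histone class in each of the 3 control libraries (open circles) and 3 knockdown libraries (filled circles), with the mean and SD beside them and the axis starting at 0. The groups are apart for H1 (80.2 to 85.4 against 94.0 to 101 FPKM) and H4 (22.9 to 25.6 against 20.2 to 22.1 FPKM) and overlap for H2A and H2B. The H4 sums overlap without HIST1H4J, which was not called.

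By cluster as named in the symbol, the 20 tested HIST1 genes had a median log2 fold change of 0.02. Of these, 3 were called lower and 1 higher, or 20% beside 16.7% of all tested rows (10.2% lower and 6.54% higher). The 6 tested HIST2 genes had a median of -0.14, all 6 estimates were below 0, and 2 of them were called lower, or 33.3%. The values of HIST2H2AA3, HIST2H2AC, HIST2H2BA and HIST2H2BB are uncertain for the reasons given above. The last 2 are pseudogenes and lie apart from the other HIST2 genes. The estimates of HIST2H2AC and HIST2H2BB lay above 0 without knockdown replicate 2, and that of HIST2H2AC also without control replicate 3. This split was made after the values were seen and was not tested.

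Many H2A and H2B genes stand head to head and share the stretch between them as a promoter. Among the members there were 12 such H2A and H2B pairs, with 189 to 346 bases between the starts, and they hold 24 of the 35 H2A and H2B genes. The levels of partners could lie far apart. HIST1H2BK stood at 255 FPKM and its partner HIST1H2AH at 0.123 FPKM, HIST2H2BE at 30.9 and HIST2H2AC at 2.59 FPKM, HIST3H2A at 14.9 and HIST3H2BB at 0.802 FPKM, and HIST1H2BA at 3.47 and HIST1H2AA at 0.0927 FPKM. In contrast HIST1H2AC, at 34.5 FPKM, stood 1.74 times as high as HIST1H2BC, 218 bases away. Both partners were tested in 6 pairs, and in none were both called. In the pair of HIST1H2BC and HIST1H2AC the log2 fold changes were -0.21 and 0.00041, and in the pair of HIST2H2BE and HIST2H2AC they were -0.15 and -0.08. The difference between partners was not tested.

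The 30 genes under 1 FPKM were not tested. Just outside the filter were HIST1H4I at 0.979 FPKM, HIST1H3A at 0.889 FPKM and HIST1H2BE at 0.823 FPKM, and just inside it HIST1H3C at 1.04 and HIST1H3B at 1.08 FPKM. The control means of HIST1H4I, HIST1H3A, HIST3H2BB and HIST2H3D were 1.11, 1.18, 1.11 and 1.03 FPKM. Those genes missed the filter through their knockdown libraries, so the counts of tested genes called lower leave them out. HIST1H4I stood at 0.773, 0.919 and 0.844 FPKM in knockdown replicates 1, 2 and 3 and at 1.14, 1.17 and 1.03 FPKM in control replicates 1, 2 and 3. It lies within the span of HIST1H2BK on the opposite strand, and since the strand setting of the counting is not given in the sources used here, reads of the 2 genes may not be separated. HIST1H3A stood at 0.685, 0.557 and 0.551 FPKM in knockdown replicates 1, 2 and 3 and at 1.14, 1.02 and 1.38 FPKM in control replicates 1, 2 and 3. In HIST1H4I and HIST1H3A all knockdown values were under all control values, while the groups of HIST1H2BE overlapped.

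Across the 30 genes the groups did not overlap for 7, or 23.3%, beside 9.08% of all rows under 1 FPKM that were not listed at 0 throughout. All 7 lay between 0.1 and 1 FPKM, where 15.6% of rows did not overlap and 17 histone genes stood. Lower in the knockdown were HIST1H4I, HIST1H3A, HIST3H2BB, HIST2H3D, HIST1H1E and HIST1H4B, the last by a margin in the fourth digit, and higher was HIST1H2AJ, beside 4.92% of rows under 1 FPKM that were lower without overlap and 4.17% that were higher. When the filter was dropped and 26835 rows were tested, limma called HIST1H1C and HIST1H3A lower and no histone gene higher, so 2 of 58 genes were called beside 5.27% of rows (HIST1H3A log2 fold change -0.45). At such levels few reads stand behind a value, and control replicates 2 and 3 had the greatest relative depth. Of the 30 genes 18 held a 0 in some library and 9 were above 0 in a single library, among them HIST1H3D, whose value is 0 in effect. A value of exactly 0 may stand for a failed estimate: U2AF1, needed for splicing in all cells, had 0 in each library. HIST2H3A and HIST2H3C, counted with HIST2H3D as duplicated HIST2 copies, were also listed at 0, so the HIST2H3D value is uncertain.

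**Figure D4:**
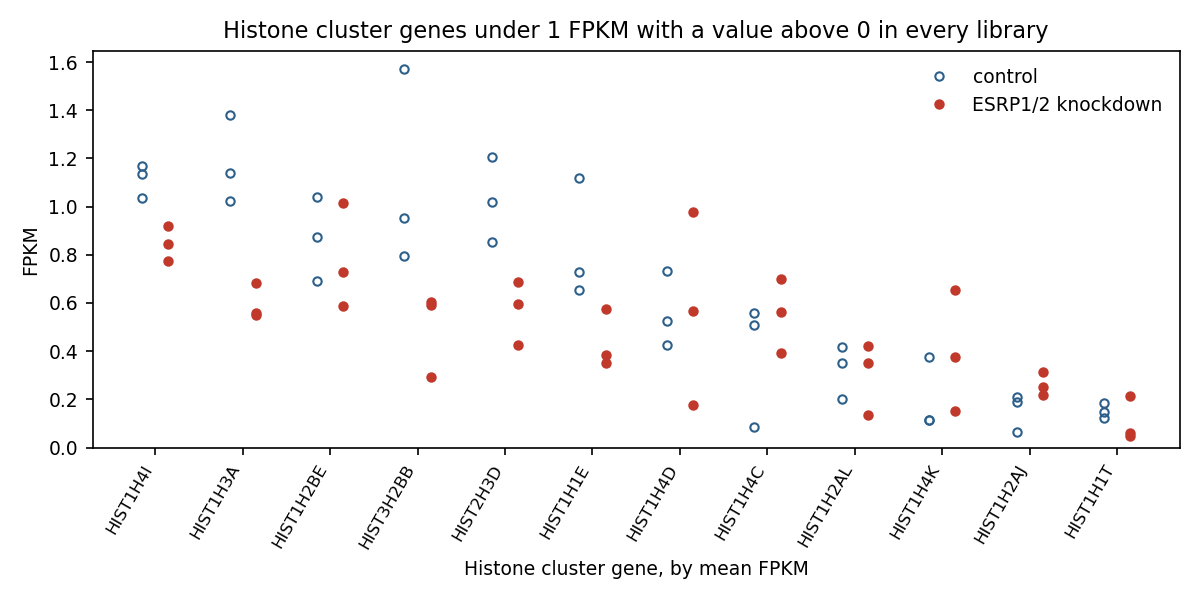
FPKM in each control library (open circles) and knockdown library (filled circles) for the 12 histone genes that have a mean under 1 FPKM and a value above 0 in every library. The knockdown circles lie below the control circles for HIST1H4I, HIST1H3A, HIST3H2BB, HIST2H3D and HIST1H1E and above them for HIST1H2AJ.

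Genes that make, process or carry histones were examined beside the cluster genes as lists of known function, each counted whole. The genes listed as replication-independent histones lie outside the clusters, and most of them encode variants made through the cell cycle from polyadenylated RNA. Of 10 tested, 4 fell and none rose, which is 40% called beside 16.7% of all tested rows (10.2% lower and 6.54% higher), with a median log2 fold change of -0.09. H1F0, the linker histone of differentiated cells, went from 117 ± 1.9 to 85.2 ± 0.58 FPKM (log2 fold change -0.45, SE 0.02, limma adjusted p = 1.3e-04). H3F3B, which encodes the variant H3.3, went from 252 ± 2.5 to 228 ± 3.2 FPKM and H2AFY, which encodes macroH2A1, from 137 ± 2.8 to 121 ± 3.3 FPKM. H2AFJ went from 55.8 ± 0.59 to 48.1 ± 2.6 FPKM (limma adjusted p = 0.0131), a call that held in 4 of 6 fits with a library left out.

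Histone chaperones deliver histones to DNA. Of 19 tested, 6 rose and 1 fell, which is 36.8% called beside 16.7% of all tested rows (6.54% higher and 10.2% lower), with a median log2 fold change of 0.09. NAP1L1, a chaperone of H2A and H2B, went from 188 ± 6.2 to 220 ± 7.6 FPKM (log2 fold change 0.22, SE 0.04, limma adjusted p = 0.00694), and the call held with any library left out. CHAF1A, a subunit of the complex that loads H3 and H4 behind the replication fork, and HAT1, which acetylates new H4, rose by 0.20 and 0.13 on the log2 scale, and each call held in 2 of 6 fits with a library left out. The chaperone gene that fell was UBN1, of the complex that deposits H3.3 (log2 fold change -0.16, SE 0.04, limma adjusted p = 0.0311), a call lost in each such fit. With any single library left out, between 1 and 5 chaperone genes were called higher and none lower: 1 without knockdown replicate 2 or control replicate 2 or 3, 2 without knockdown replicate 1 or control replicate 1, and 5 without knockdown replicate 3.

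Among 23 factors of histone mRNA synthesis, processing and decay, 1 rose and 1 fell, which is 8.70% called beside 16.7% of all tested rows, with a median log2 fold change of 0.01. SLBP, which binds the stem-loop, stood at 85.6 ± 5.1 FPKM with the knockdown and 83.4 ± 3.5 FPKM without it (limma adjusted p = 0.661), and NPAT, the activator of histone gene transcription, at 8.66 ± 0.45 and 7.67 ± 0.61 FPKM (limma adjusted p = 0.130). MIF4GD, known to bind SLBP in translation of histone mRNA, went from 9.37 ± 0.23 to 6.77 ± 0.061 FPKM (log2 fold change -0.42, SE 0.04, limma adjusted p = 0.00103). CCNE1, which encodes cyclin E1, had a log2 fold change of 0.20 (limma adjusted p = 0.0411), a call that held in 1 of 6 fits with a library left out, the one without control replicate 1. Of 39 DNA replication genes, SLBP again among them, 5 rose and 1 fell, with a median of 0.08. The 15.4% called stands beside 16.7% of all tested rows (6.54% higher and 10.2% lower). Estimates lay above 0 for 32 genes and below 0 for 7. The groups did not overlap for 53.85%, with 18 genes higher in the knockdown and 3 lower. This stands beside 38.1% of all tested rows (17.3% higher and 20.9% lower). GINS3, a subunit of the replicative helicase complex, LIG1, which joins Okazaki fragments, and FEN1, which trims them, had log2 fold changes of 0.33, 0.20 and 0.12, and UNG, which removes uracil from DNA, one of -0.24. With single libraries left out, 1 to 8 of these genes were called higher: 1 without knockdown replicate 2, 2 without knockdown replicate 1 or control replicate 2 or 3, 3 without control replicate 1 and 8 without knockdown replicate 3. The differences between these lists and the histone cluster genes were not tested.

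**Figure D5:**
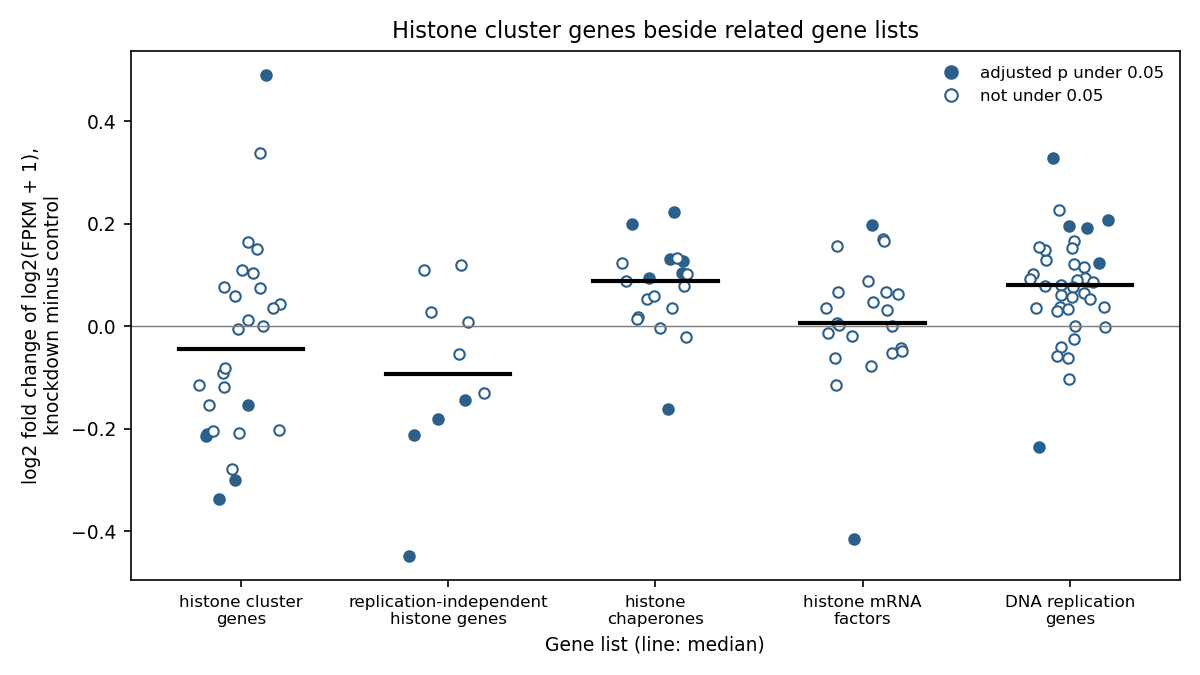
Log2 fold change of log2(FPKM + 1), knockdown minus control, for each tested gene of the histone clusters and of 4 related lists, filled where the limma adjusted p is under 0.05, with a line at the median of each list. The medians are -0.04 for the histone cluster genes, -0.09 for the replication-independent histones, 0.09 for the chaperones, 0.01 for the histone mRNA factors and 0.08 for the DNA replication genes.

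The precision of these values rose with level. Among tested histone genes the median SE of the log2 fold change was 0.05 for the 9 genes of at least 10 FPKM, 0.10 for the 11 between 3 and 10 FPKM and 0.12 for the 8 between 1 and 3 FPKM. The number of calls was 3, 2 and 1 in these groups. Over all tested rows at any level 16.7% were called. That share was not split by level, so no link between calls and level is read from these counts.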

How the data were processed

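RNA was measured in 6 H358 libraries, 3 with knockdown of ESRP1 and ESRP2 and 3 controls. The authors deposited 1 FPKM value for each gene in each library; the submitters' processing notes name hg19, TopHat 1.4.1 and Cuffdiff 2.2.0. Not given in the sources used here were the annotation release, strand setting and length correction; a different transcript length would shift a gene's level. Total depth is unknown and relative depth was estimated from values below 0.3 FPKM.

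Groups were compared by limma 3.58.1 (R 4.3.3), two-sided and with a trend on intensity, using log2(FPKM + 1), a pseudocount of 1 that understates the change of low genes. Rows averaging 1 FPKM or more were tested, and Benjamini-Hochberg adjustment ran over all of them with a threshold of 0.05. The steps were checked on simulated data. Alternatives were TPM or median-ratio scaling, a pseudocount of 0.1, a replicate block, no filter or one of 5 FPKM, a fit without the trend, removal of GC and length trends, leaving out the duplicated HIST2 copies, and leaving out each library.

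Members and lists were chosen with earlier results of these data known. Every tested histone gene is described, with values by library for called genes and the 2 of highest mean per class; of the related lists, SLBP, NPAT and up to 4 called genes by smallest adjusted p are named. Stem-loops and poly(A) signals were read from GENCODE v29 transcripts and promoters from RefSeq (GRCh38.p14), with 48 of 58 genes matched. Gene coordinates are those of hg19, counted from 1. The replicates are described as biological, and no label says what a replicate number shares across groups.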

Additional observations from a re-analysis of the deposited data

How the results depend on the processing

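FPKM without totals gives no counting error, and with 3 libraries a group the spread of a low gene is poorly known. HIST1H1C was called lower under every alternative run, and the other 5 histone calls were each lost under some. No cause of a change given here was tested, beyond fewer rows or libraries where a setting removes them.

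Without the filter 497 rows were called higher and 916 lower; histone calls were 0 higher and 2 lower, histone mRNA factors 0 higher, chaperones 3 higher and 0 lower, and replication genes 3 higher. At a filter of 5 FPKM histone calls were 0 higher and 3 lower with a median of -0.12, replication-independent histones had 1 higher and replication genes 8. Median-ratio scaling gave 1 higher replication-independent histone and 9 higher replication genes. TPM scaling gave 6 lower histone genes, HIST2H2BF being the added call, 0 higher mRNA factors, 1 higher replication-independent histone and 3 higher chaperones. Without the intensity trend there were 3 lower histone genes, 2 higher chaperones and 3 higher replication genes. Removing GC and length trends gave 1173 rows higher and 1257 lower, beside 890 and 1388. It gave medians of 0.051 for mRNA factors and -0.048 for replication-independent histones, 2 of the latter higher, 0 chaperones lower and 11 replication genes higher.

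With the replicate number as a block, 491 rows were called higher, 2 histone genes lower, 0 mRNA factors higher, and 2 chaperones higher and 0 lower. Same-numbered libraries deviated with correlations of -0.02, 0.06 and 0.07, so the numbers were not taken as pairs.

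Without the gene of highest mean, the log2 ratio of summed levels was -0.65 for H1, -0.12 for H2B and -0.11 for all 58 genes. The H1 value then rests on genes under 1 FPKM that were not tested, the highest being HIST1H1E at 0.635 FPKM. With single libraries left out, 403 to 850 rows were called higher and 761 to 1133 lower, histone genes 0 to 1 higher and 2 to 3 lower, chaperones 1 to 5 higher and 0 lower, mRNA factors 0 to 1 higher with medians of -0.0085 to 0.025, replication-independent histones 0 to 1 higher and 3 to 5 lower, and replication genes 1 to 8 higher. The median of the tested histone genes ranged from -0.06 to -0.00021.

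Signs turned for 10 genes that were not called. With single libraries left out, the log2 fold change ranged from -0.0064 to 0.28 for HIST1H2BO, -0.24 to 0.010 for HIST2H2BB, -0.32 to 0.019 for HIST1H2AK, -0.052 to 0.13 for HIST1H2BJ, -0.034 to 0.26 for HIST1H3B, -0.33 to 0.089 for HIST2H2AC, -0.059 to 0.13 for HIST1H2AI, -0.16 to 0.13 for HIST1H2AM, -0.045 to 0.049 for HIST1H2AG and -0.027 to 0.043 for HIST1H2AC. HIST1H2AG turned to 0.00023 with median-ratio scaling, and HIST1H2AC to -0.012 with TPM scaling and -0.0046 with GC and length trends removed.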
